A study of Gallus gallus with 6 samples.

Results

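The genes described here are 10 genes of the chicken major histocompatibility complex (MHC) and of antigen presentation, namely BF1, BF2, B2M, TAP1, TAP2, TAPBP, BLB1, BLB2, CD74 and DMB2. They were selected by their symbols, with earlier results of these data known, and each had 1 row among the 24433 genes of the deposited expression table. The cells were chicken primary myoblasts, precursors of muscle fibres from leg muscle, whose polyadenylated RNA was sequenced. Cells of 3 libraries overexpressed ANKRD9, which encodes an ankyrin repeat protein, and those of 3 others carried the empty expression vector pcDNA3.1. The labels give neither the time after transfection nor the age of the birds. They call the libraries of a group repeats without naming separate cultures or birds, so a p-value here sets a difference against a spread that may be purely technical.

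MHC class I molecules consist of a heavy chain and the light chain beta-2-microglobulin, and show peptides from inside the cell to CD8 T cells. The peptides are pumped into the endoplasmic reticulum by the transporter TAP, and tapasin (TAPBP) holds the empty class I molecule beside it. Class II molecules are pairs of an alpha and a beta chain that are guided by the invariant chain CD74, loaded with peptides from endosomes with the help of the DM proteins, and known mainly from professional antigen-presenting cells. In chickens the classical class I and class II beta genes, both TAP genes and tapasin lie close together in the compact B locus of chromosome 16.

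The values were FPKM, fragments scaled to gene length and library total. Behind them stood 16158627 to 26310089 reads a library. The totals implied by the FPKM scale differed from these reads by 1.02% to 1.45% in ANKRD9 libraries. In pcDNA3.1 libraries they differed by -1.08% to -0.161%. ANKRD9 itself stood at 98.7 ± 7.26 FPKM in ANKRD9 cells and 9.24 ± 0.984 FPKM in pcDNA3.1 cells (SD, n = 3 each). Of 10 listed myoblast markers 9 were found and 8 averaged 1 FPKM or more, among them MYF5, DES, MYOG and MYOD1. In ANKRD9 cells 3 of the 8 were higher and 3 lower, or 1 lower without ANKRD9 replicate 1 or without ANKRD9 replicate 2. MYOD1 was lower, with a log2 fold change of -0.78 (limma, adjusted p = 3.12e-04). MYF5 and DES were higher, with log2 fold changes of 0.32 and 0.33 (limma, adjusted p = 0.00517 and 0.00909), and MYOG did not pass (adjusted p = 0.292, limma). Of 8 fibroblast markers 7 were lower, or 5 without ANKRD9 replicate 2, ANKRD9 replicate 3 or pcDNA3.1 replicate 3. The summed level of the 8 was 1383 to 1488 FPKM in ANKRD9 libraries and 1859 to 1912 FPKM in pcDNA3.1 libraries. Beside these marker counts, 16.3% of all tested genes were higher and 19.8% lower (limma, adjusted p under 0.05). Of 7 endothelial markers 3 were tested, with PECAM1 higher (1.29-fold) and EGFL7 (0.742-fold) and TEK (0.532-fold) lower. Erythroid markers reached at most 0.735 FPKM in sum in ANKRD9 libraries and 0.648 FPKM in pcDNA3.1 libraries.

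Transcripts of the classical class I heavy chains and of 1 of the 2 TAP subunits were higher in ANKRD9 cells, and those of the light chain, tapasin and the class II system did not pass the test in either direction. BF2 was 1.27-fold, BF1 1.27-fold and TAP1 1.15-fold higher. All 10 genes averaged 1 FPKM or more and entered the test. Of them 3 were higher, 0 lower, and 7 did not pass (limma on log2(FPKM + 1), Benjamini-Hochberg adjusted p over 11685 genes, threshold 0.05). Over all tested genes 36.0% were called, with 16.3% higher and 19.8% lower, so 3 calls among 10 genes are a share near the background. The groups did not overlap for the same 3 genes, all higher, where 23.7% of all tested genes were higher and 26.9% lower without overlap, 50.6% in all. The median log2 fold change of the 10 genes was 0.06, beside -0.01 over all tested genes.

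**Figure D1:**
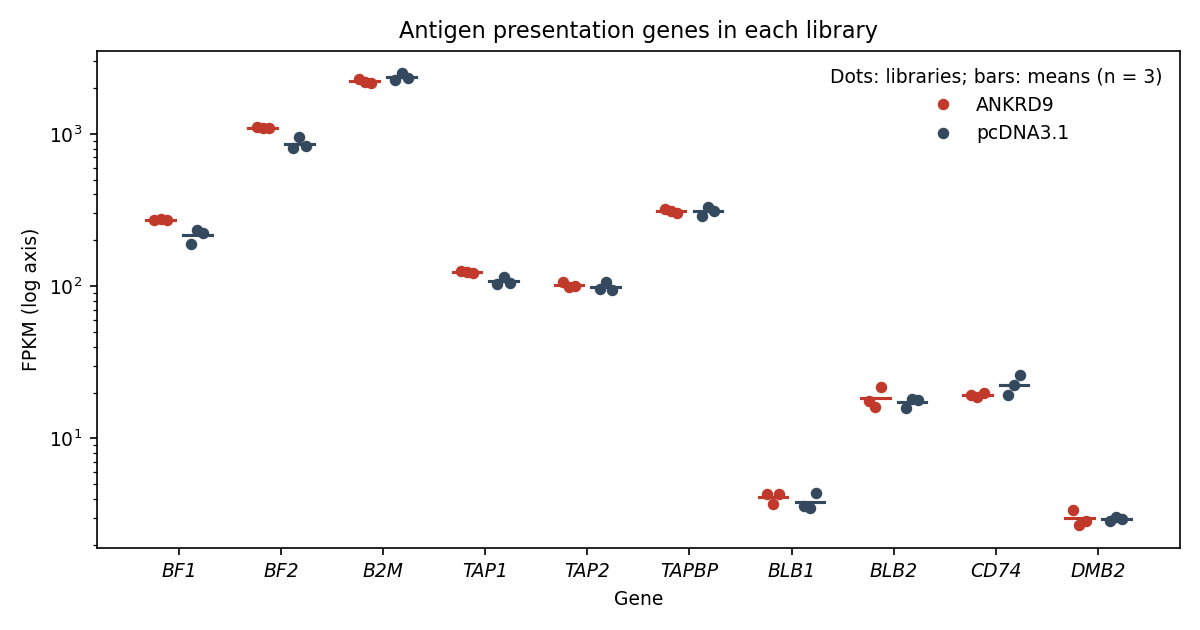
FPKM on a log axis of each gene in the 3 ANKRD9 libraries (red) and the 3 pcDNA3.1 libraries (dark), with bars at the group means. The class I genes lie between 94.5 and 2497 FPKM and the class II genes at 25.9 FPKM or below, and the groups separate for BF1, BF2 and TAP1.

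The 10 genes differed widely in level. By mean FPKM over the 6 libraries the order was B2M at 2285, BF2 at 982, TAPBP at 310.2, BF1 at 245, TAP1 at 116, TAP2 at 100.4, CD74 at 20.9, BLB2 at 17.9, BLB1 at 3.97 and DMB2 at 2.97 FPKM. B2M ranked 10 and BF2 ranked 37 among the 11685 tested genes. In this order the ranges over libraries overlapped for TAP1 and TAP2 and for CD74 and BLB2, and every other neighbouring pair was separated in all 6 libraries. The class I and peptide-loading genes were thus each at least 4.81-fold above the class II genes in mean level.

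BF2 encodes the class I heavy chain that chickens express most strongly. Its level was 1106, 1097 and 1097 FPKM in the ANKRD9 libraries, against 806, 950.2 and 836 FPKM in the pcDNA3.1 libraries. The 3 ANKRD9 libraries lay within a narrow band above all 3 pcDNA3.1 libraries. The log2 fold change was 0.35 ± 0.07 (SE), with an adjusted p of 0.00613 (limma). BF2 lies on the minus strand at chr16:2606805-2609008 (GRCg6a), and 20182 to 37064 reads stood behind each value.

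BF1 (chr16:2592998-2595800, plus strand), the second classical heavy chain and the less abundant one in chickens, had 271, 278 and 271 FPKM in ANKRD9 libraries, against 190.5, 235 and 223 FPKM in pcDNA3.1 libraries. The groups did not overlap, and the lowest pcDNA3.1 library was replicate 1, as for BF2. A log2 fold change of 0.34 ± 0.07 (SE) passed the test (limma, adjusted p = 0.0106).

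BF1 and BF2 are close relatives, and reads shared between them may have been split by the authors' counting, so their sum and ratio were also taken. The genes differ in length, 1893 bases for BF1 and 1255 for BF2, so summed FPKM and the ratio still depend on that split. Summed FPKM of the pair was 1374 ± 4.63 in ANKRD9 cells and 1080.3 ± 96.2 in pcDNA3.1 cells (SD, n = 3 each), with no overlap (exact two-sided permutation test, p = 0.1, the smallest value that 3 against 3 libraries allow). The ratio of BF2 to BF1 was 4.02 ± 0.0686 in ANKRD9 cells and 4.01 ± 0.243 in pcDNA3.1 cells, and did not differ beyond the spread (exact permutation p = 0.9). BF2 made up 79.8% to 80.3% of the summed FPKM in ANKRD9 libraries and 78.9% to 80.9% in pcDNA3.1 libraries. Besides this ratio and the 2 sums, 5 other ratios were computed, and adjusted over all 8 no p was below 0.16. All 8 reuse the values of single genes and are not separate from the calls of those genes.

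B2M, the light chain of every class I molecule, did not pass the test. It stood at 2300, 2182 and 2169 FPKM in ANKRD9 libraries, against 2243, 2497 and 2318 FPKM in pcDNA3.1 libraries. The groups overlapped, with a log2 fold change of -0.08 ± 0.06 (SE) and a 95% interval of -0.23 to 0.06 (limma, adjusted p = 0.313). B2M lies outside the MHC, at chr10:1784065-1786517 on the plus strand. The ratio of summed heavy chains to B2M was 0.599, 0.630 and 0.631 in ANKRD9 libraries, against 0.444, 0.475 and 0.457 in pcDNA3.1 libraries. All 3 ANKRD9 ratios lay above all 3 pcDNA3.1 ratios, a 1.35-fold difference of means (exact permutation p = 0.1, adjusted 0.16).

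**Figure D2:**
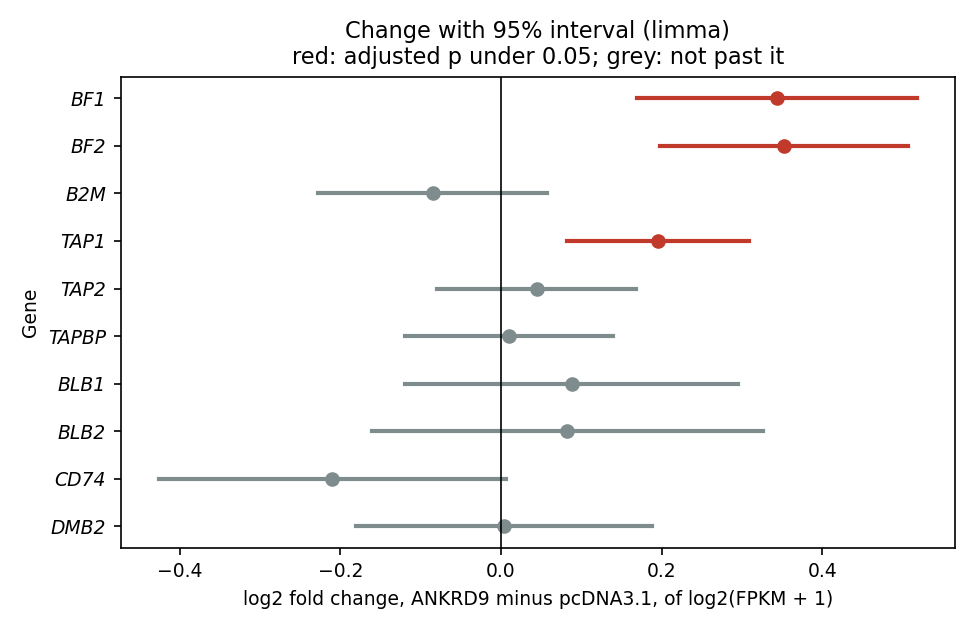
Log2 fold change of each gene, ANKRD9 minus pcDNA3.1, on the log2(FPKM + 1) scale, with the 95% interval from limma. The intervals of BF1, BF2 and TAP1 (red) lie above 0, and the 7 others (grey) include it.

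The TAP subunits pair to form the peptide transporter. TAP1 (chr16:2595948-2601142, minus strand) had 126, 123 and 121 FPKM in ANKRD9 libraries, against 103, 115 and 105 FPKM in pcDNA3.1 libraries. The groups did not overlap, with a log2 fold change of 0.20 ± 0.05 (SE) and an adjusted p of 0.0180 (limma). This call was lost without ANKRD9 replicate 1 (adjusted p = 0.0632), ANKRD9 replicate 2 (0.0606) or pcDNA3.1 replicate 3 (0.0618; limma).

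TAP2 (chr16:2601162-2604724, plus strand), which begins just beyond TAP1 and runs the other way, had 106, 99.3 and 100.6 FPKM in ANKRD9 libraries, against 96.4, 105.9 and 94.5 FPKM in pcDNA3.1 libraries. The groups overlapped, and the log2 fold change of 0.04 ± 0.05 (SE) did not pass (limma, adjusted p = 0.548; 95% interval -0.08 to 0.17). Within libraries the ratio of TAP1 to TAP2 was 1.19, 1.24 and 1.21 in ANKRD9 libraries, against 1.07, 1.09 and 1.12 in pcDNA3.1 libraries. The ratios did not overlap (exact permutation p = 0.1, adjusted 0.16).

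TAPBP (chr16:2567828-2571359, minus strand) encodes tapasin, which ties class I to the transporter. Its level was 320.4, 309 and 304 FPKM in ANKRD9 libraries, against 288, 328 and 312 FPKM in pcDNA3.1 libraries. The groups overlapped throughout, with a log2 fold change of 0.01 ± 0.06 (SE) and a 95% interval of -0.12 to 0.14 (limma, adjusted p = 0.906). The ratio of summed heavy chains to TAPBP was 4.42 ± 0.107 in ANKRD9 cells and 3.49 ± 0.108 in pcDNA3.1 cells (SD, n = 3 each; exact permutation p = 0.1, adjusted 0.16).

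**Figure D3:**
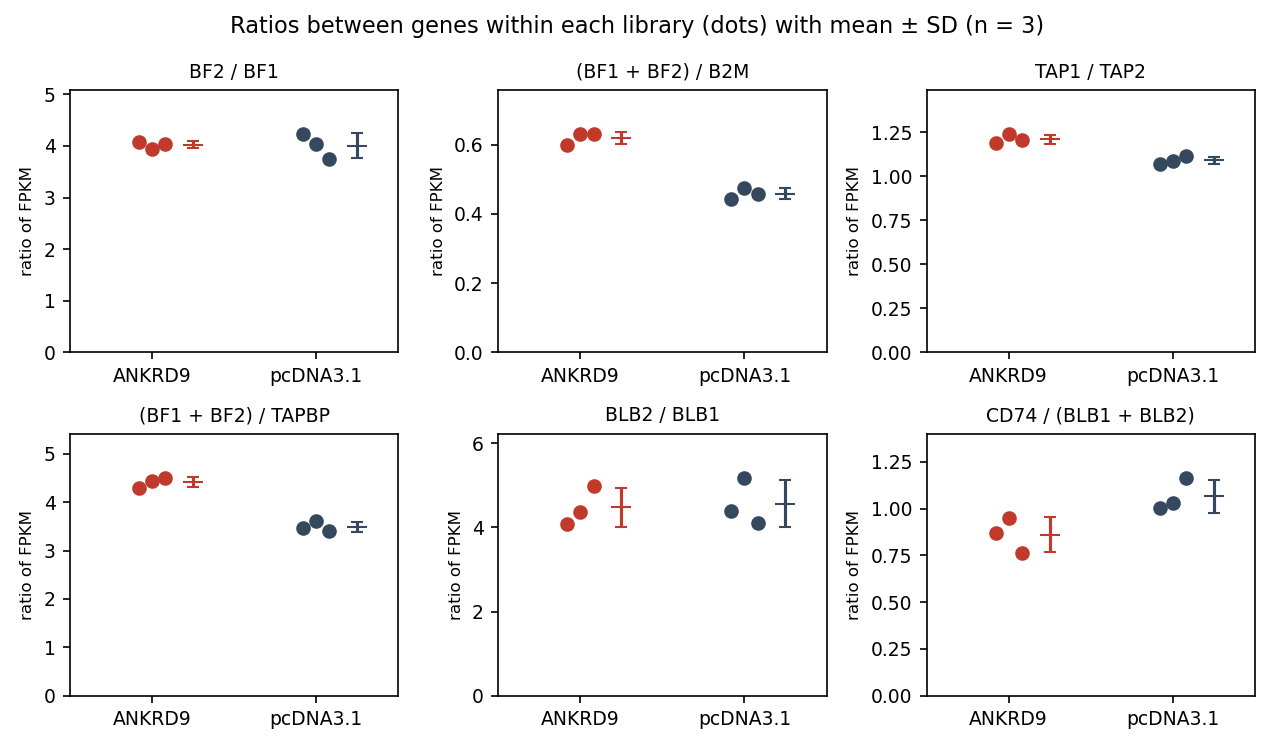
Ratios of FPKM between genes within each library (dots), with mean ± SD, for 3 ANKRD9 and 3 pcDNA3.1 libraries. The ratios of the heavy chains to B2M and to TAPBP and of TAP1 to TAP2 are higher in all ANKRD9 libraries, that of CD74 to the class II beta chains is lower, and BF2 to BF1 and BLB2 to BLB1 overlap.

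The class II genes were low beside the class I genes, and none of the 4 passed the test. Among the 11685 tested genes CD74 ranked 3906 and BLB2 4411 by mean level, and BLB1 ranked 9029 and DMB2 9710. BLB2, the class II beta chain known from chicken blood and spleen cells, had 17.7, 16.1 and 21.6 FPKM in ANKRD9 libraries, against 15.8, 18.2 and 17.9 FPKM in pcDNA3.1 libraries. The groups overlapped (log2 fold change 0.08 ± 0.10, SE; limma, adjusted p = 0.570). BLB2 lies at chr16:2572332-2573868 on the plus strand.

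BLB1 (chr16:2565094-2566961, minus strand), its close relative, had 4.34, 3.68 and 4.33 FPKM in ANKRD9 libraries, against 3.60, 3.51 and 4.35 FPKM in pcDNA3.1 libraries. These values rested on 78 to 150 reads, the groups overlapped, with a log2 fold change of 0.09 ± 0.09 (SE) and an adjusted p of 0.472 (limma). BLB1 shares a few bases with BLEC1 on the opposite strand, a gene at no more than 0.159 FPKM in any ANKRD9 library and 0.0335 FPKM in any pcDNA3.1 library. As with BF1 and BF2, reads could be split between the 2 beta chain genes, which differ in length, so their summed FPKM also depends on the split. Their summed FPKM was 22.6 ± 3.13 in ANKRD9 cells and 21.1 ± 1.53 in pcDNA3.1 cells (SD, n = 3 each; exact permutation p = 0.5), and the ratio of BLB2 to BLB1 was 4.48 ± 0.469 in ANKRD9 cells and 4.56 ± 0.560 in pcDNA3.1 cells (p = 0.7).

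CD74 (chr13:13851647-13855476, plus strand), the invariant chain that occupies the class II groove until peptide loading, had 19.2, 18.7 and 19.7 FPKM in ANKRD9 libraries, against 19.4, 22.4 and 25.9 FPKM in pcDNA3.1 libraries. The groups overlapped because pcDNA3.1 replicate 1 lay within the range of the ANKRD9 libraries. Its log2 fold change of -0.21 ± 0.09 (SE) did not pass (limma, adjusted p = 0.116). Without pcDNA3.1 replicate 1 it was -0.31 and passed (limma, adjusted p = 0.0142). The ratio of CD74 to the summed beta chains was 0.872, 0.949 and 0.761 in ANKRD9 libraries, against 1.00, 1.03 and 1.17 in pcDNA3.1 libraries, lower in all 3 ANKRD9 libraries (exact permutation p = 0.1, adjusted 0.16).

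DMB2 (chr16:2589313-2592336, plus strand), a beta chain of the DM peptide exchanger, was the least abundant of the 10 genes. It had 3.39, 2.69 and 2.85 FPKM in ANKRD9 libraries, against 2.88, 3.05 and 2.95 FPKM in pcDNA3.1 libraries. The groups overlapped (log2 fold change 0.00 ± 0.08, SE; limma, adjusted p = 0.975). The value of ANKRD9 replicate 2 rested on 65 reads, whose exact Poisson 95% interval runs from 2.08 to 3.43 FPKM and takes in the values of all 6 libraries. Such an interval covers counting error only.

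Of other class II genes, BLA, CIITA and DMB1 had few or no reads. BLA, the symbol of the class II alpha chain, had 0 reads in all 3 ANKRD9 libraries and 3, 1 and 1 reads in the pcDNA3.1 libraries, on a row of only 258 bases on chromosome 23. Whether that row represents the alpha chain gene is uncertain, so it gives no level for the alpha chain. CIITA, in mammals the master activator of class II genes, had 14, 5 and 7 reads in ANKRD9 libraries and 10, 16 and 8 reads in pcDNA3.1 libraries, with highest levels of 0.0480 FPKM in ANKRD9 libraries and 0.0640 FPKM in pcDNA3.1 libraries. The DM alpha gene, listed as MHCDMA and chosen after its values were seen, stood at 2.10 ± 0.626 FPKM in ANKRD9 cells and 2.40 ± 0.0478 FPKM in pcDNA3.1 cells (SD, n = 3 each; limma, adjusted p = 0.409). Without ANKRD9 replicate 1 it was called lower (limma, adjusted p = 0.0269). DMB1, the second DM beta gene, which overlaps MHCDMA, had 6, 1 and 4 reads in ANKRD9 libraries and 7, 2 and 0 reads in pcDNA3.1 libraries.

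Class II transcripts are also made by leukocytes, whose markers were present at low levels. Of 26 markers of antigen-presenting cells and other leukocytes 12 were tested, with 3 higher, 1 lower and 8 not past the threshold. The shares among all tested genes were 16.3% higher and 19.8% lower. The summed level of all 26 was 87.9 to 94.1 FPKM in ANKRD9 libraries and 84.0 to 89.7 FPKM in pcDNA3.1 libraries. A large part of it came from MRC2, at 26.1 to 29.6 FPKM in ANKRD9 libraries and 33.1 to 39.6 FPKM in pcDNA3.1 libraries. MRC2 was the 1 lower gene, so the sum does not show how the other markers moved. PTPRC, the pan-leukocyte marker CD45, stood at 2.18 ± 0.305 FPKM in ANKRD9 cells and 1.75 ± 0.166 FPKM in pcDNA3.1 cells (SD, n = 3 each; limma, adjusted p = 0.122, and 0.0413 with voom on the recovered reads). No marker was at 0 in every library, although XCR1 was at 0 in all ANKRD9 libraries and CD8A in all pcDNA3.1 libraries. CD83, an activation marker of dendritic cells, had the smallest adjusted p of the list, at 8.68 ± 0.608 FPKM in ANKRD9 cells and 3.69 ± 0.461 FPKM in pcDNA3.1 cells (limma, adjusted p = 2.18e-04). The T cell gene CD3E, which averaged under 5 FPKM, was 2.41-fold higher, with a log2 fold change of 0.91 ± 0.19 (SE). SPI1, which encodes a myeloid transcription factor, stood at 8.88 ± 0.701 FPKM in ANKRD9 cells and 5.90 ± 0.489 FPKM in pcDNA3.1 cells. MRC2, a collagen receptor gene, was lower, at 0.747-fold, and adjusted p lay between 0.00219 and 0.00862 for CD3E, SPI1 and MRC2 (limma). In bulk samples fewer cells of a type and less RNA per cell cannot be told apart, and the part of leukocytes in the levels or changes of these genes was not tested.

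**Figure D4:**
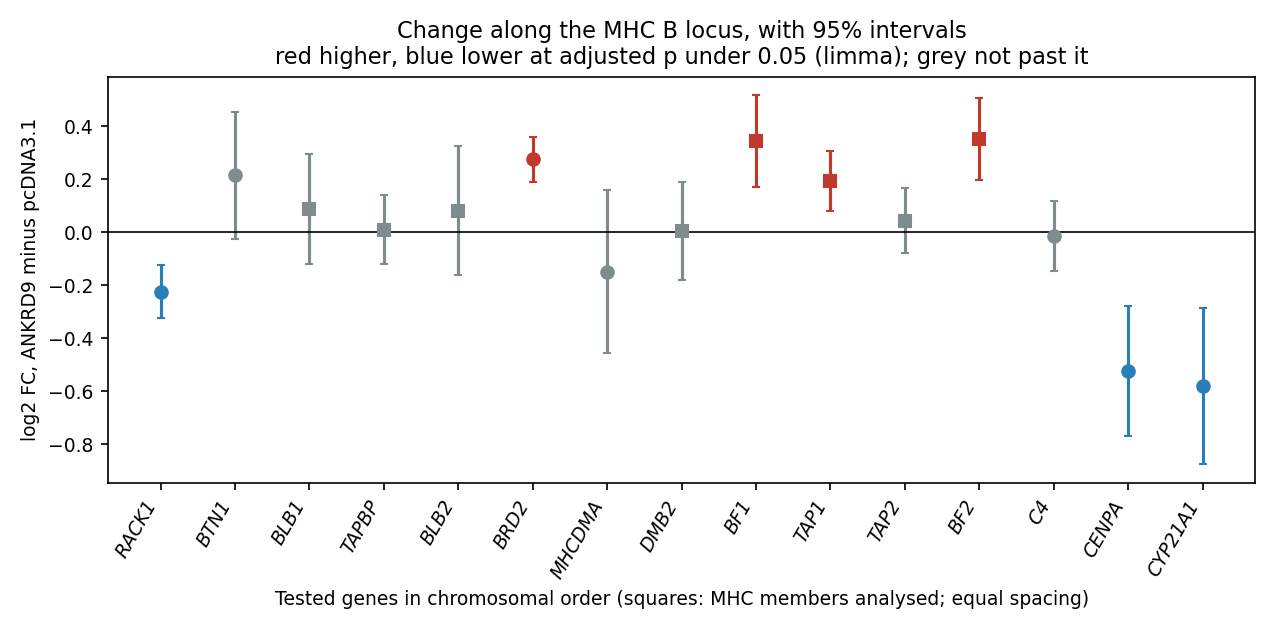
Log2 fold change with 95% interval of the tested genes from RACK1 to CYP21A1, in chromosomal order at equal spacing. BF1, TAP1, BF2 and BRD2 are higher, RACK1, CENPA and CYP21A1 are lower, and BLB1, TAPBP, BLB2, MHCDMA, DMB2, TAP2, BTN1 and C4 (grey) did not pass.

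Higher genes did not form an unbroken block of the B locus. From the start of BLB1 to the end of BF2, 43.9 kb of chromosome 16, the table lists 11 genes. Of these 10 were tested, and 4 were higher and 0 lower, the 4 being BF1, TAP1, BF2 and BRD2. Over all tested genes 16.3% were higher and 19.8% lower. The calls of BF1, TAP1 and BF2 are those given above, so this count is not separate from that of the members. The higher count was 3 without ANKRD9 replicate 1, ANKRD9 replicate 2 or pcDNA3.1 replicate 3, and in the first of these fits 1 gene was lower. BRD2, which encodes a bromodomain protein that binds acetylated chromatin, sits between BLB2 and the DM genes and stood at 134 ± 1.77 FPKM in ANKRD9 cells and 110.3 ± 2.62 FPKM in pcDNA3.1 cells (SD, n = 3 each; limma, adjusted p = 0.00149). TAP2, which lies between TAP1 and BF2, did not pass. A list of genes known from the MHC region, drawn up without the 10 members, had 18 tested genes, of which 15 lie on chromosome 16. Of those 15, 3 were higher and 5 lower, with a median log2 fold change of 0.10. BRD2 is among these 3, so the count is not separate from that of the interval. NELFE and SKIV2L lie on chromosome 26 and SKIV2L2, which was lower, on chromosome Z. The SKIV2L2 call (limma, adjusted p = 0.0304) was lost in 7 of 16 alternative fits. RACK1, a scaffold protein of the ribosome, was lower, at 484 ± 16.2 FPKM in ANKRD9 cells and 566 ± 6.51 FPKM in pcDNA3.1 cells (limma, adjusted p = 0.00634). The kinesin gene KIFC1, which overlaps BLEC3, was lower too, at 12.2 ± 0.567 FPKM in ANKRD9 cells and 16.8 ± 1.60 FPKM in pcDNA3.1 cells (limma, adjusted p = 0.00360).

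Among the other tested genes of the class I pathway, 2 of 15 were higher and 5 lower, with a median log2 fold change of -0.02. Without ANKRD9 replicate 1, or without ANKRD9 replicate 2, 1 was higher and 3 lower. For comparison, 16.3% of all tested genes were higher and 19.8% lower. ERAP1, the peptidase that trims peptides in the endoplasmic reticulum, fell to 54.8 ± 1.75 FPKM in ANKRD9 cells, against 66.4 ± 0.232 FPKM in pcDNA3.1 cells (SD, n = 3 each; limma, adjusted p = 0.00180). SEC61A1, of the channel through which chains enter that compartment, fell to 73.2 ± 1.29 FPKM in ANKRD9 cells, against 88.0 ± 2.95 FPKM in pcDNA3.1 cells. The lectin chaperone gene CANX fell to 103 ± 2.52 FPKM in ANKRD9 cells, against 117 ± 1.86 FPKM in pcDNA3.1 cells. HSPA5, which encodes the chaperone BiP, rose to 655 ± 12.5 FPKM in ANKRD9 cells, against 531 ± 39.5 FPKM in pcDNA3.1 cells. The adjusted p was 0.00254 for SEC61A1, 0.00859 for CANX and 0.00716 for HSPA5 (limma). CALR and PDIA3, of the loading complex with tapasin, did not pass, at 887 ± 9.27 and 493 ± 12.2 FPKM in ANKRD9 cells, against 861 ± 21.6 and 489 ± 8.23 FPKM in pcDNA3.1 cells. With quantile scaling PDIA3 passed (limma, adjusted p = 0.0478).

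In the list of class II and endosomal genes, 2 of 17 tested were higher and 6 lower, with a median log2 fold change of -0.08. The lower count was 2 without ANKRD9 replicate 2 and 3 without pcDNA3.1 replicate 3, each with 2 higher. Here too the shares among all tested genes were 16.3% higher and 19.8% lower. IFI30, the thiol reductase that opens disulfide bonds of antigens, rose 1.43-fold to 81.9 ± 4.42 FPKM in ANKRD9 cells, against 57.3 ± 6.38 FPKM in pcDNA3.1 cells. CTSV, a cysteine protease of lysosomes, rose 1.22-fold to 647 ± 18.1 FPKM in ANKRD9 cells, against 528 ± 17.1 FPKM in pcDNA3.1 cells. CTSD, an aspartic protease of lysosomes, fell to 73.4 ± 8.46 FPKM in ANKRD9 cells, against 99.3 ± 7.66 FPKM in pcDNA3.1 cells. SPPL2A, the protease that in mice clears the CD74 remnant, fell to 63.8 ± 1.00 FPKM in ANKRD9 cells, against 74.3 ± 1.10 FPKM in pcDNA3.1 cells (SD, n = 3 each). Adjusted p lay between 0.00286 and 0.00894 for the 4 genes (limma). RFX5, RFXAP and RFXANK, subunits of the factor that in mammals binds MHC promoters, did not pass, at 24.9, 28.1 and 19.7 FPKM on average in ANKRD9 cells and 23.0, 30.1 and 20.2 FPKM in pcDNA3.1 cells (limma, adjusted p between 0.147 and 0.565).

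Of 22 tested regulators of MHC transcription 11 were higher, 2 lower and 9 not past the threshold, beside 16.3% higher and 19.8% lower over all tested genes. Their median log2 fold change was 0.19, beside -0.01 over all tested genes, and the difference from other genes was not tested. The list mixes activators with inhibitors such as NFKBIA, so its count and median do not describe activators alone. The 2 lower genes were JAK1 and IFNGR1, with log2 fold changes of -0.33 and -0.23 (limma, adjusted p = 0.00983 and 0.0338). The IFNGR1 call was lost in 6 of 16 alternative fits. NLRC5, in human and mouse the transactivator of class I genes, had 11.0, 10.8 and 10.9 FPKM in ANKRD9 libraries, against 9.48, 7.82 and 8.52 FPKM in pcDNA3.1 libraries. All 3 ANKRD9 libraries lay above the others, with a log2 fold change of 0.31 ± 0.07 (SE; limma, adjusted p = 0.00980). IRF1, an interferon-induced factor that in mammals binds class I promoters, had 97.2, 90.7 and 87.8 FPKM in ANKRD9 libraries, against 71.1, 71.4 and 71.6 FPKM in pcDNA3.1 libraries (log2 fold change 0.36 ± 0.04, SE; limma, adjusted p = 0.00118).

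The list of regulators was made up mainly of NF-kB and interferon genes. That the 4 of smallest adjusted p belonged to these systems was therefore largely set by the list. REL, an NF-kB subunit, rose to 54.7 ± 1.84 FPKM in ANKRD9 cells, against 36.1 ± 1.40 FPKM in pcDNA3.1 cells. NFKBIA, the inhibitor that NF-kB itself induces, rose to 248 ± 8.18 FPKM in ANKRD9 cells, against 159.7 ± 10.3 FPKM in pcDNA3.1 cells. IFNAR1, a chain of the type I interferon receptor, rose to 33.5 ± 1.24 FPKM in ANKRD9 cells, against 23.4 ± 0.610 FPKM in pcDNA3.1 cells. IRF7, an interferon-response factor, rose to 101 ± 1.59 FPKM in ANKRD9 cells, against 79.4 ± 0.923 FPKM in pcDNA3.1 cells (SD, n = 3 each). Adjusted p lay between 1.92e-04 and 4.76e-04 (limma). REL overlaps PUS10 and IRF7 an uncharacterised gene, both on the opposite strand, and IFI30 overlaps MPV17L2 on its own strand. Whether counting used strand is not stated, and reads of such pairs cannot be told apart.

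**Figure D5:**
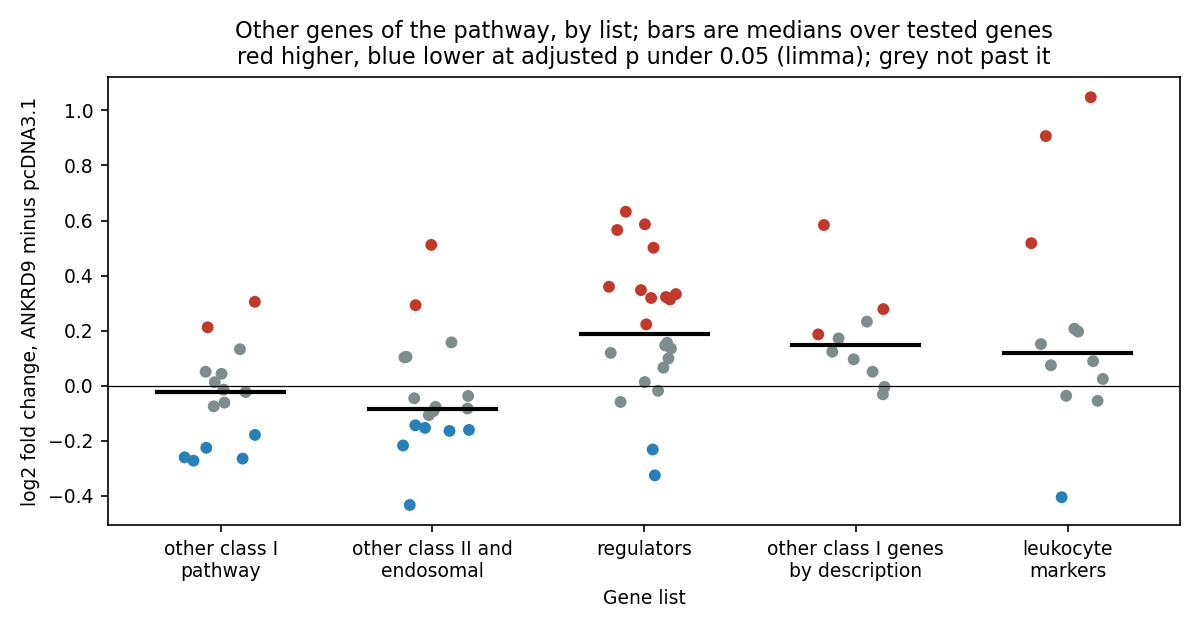
Log2 fold change of each tested gene in 5 lists, with medians as bars. Regulators of MHC transcription have a median of 0.19, other class I genes found by description 0.15 and leukocyte markers 0.12, and the class I and class II pathway lists lie at -0.02 and -0.08.

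Other class I genes, gathered by their descriptions after the values were seen, were low. Of 18 such genes 10 were tested, 3 were higher and 0 lower, with a median log2 fold change of 0.15 and summed levels of 32.5 to 35.2 FPKM in ANKRD9 libraries and 27.0 to 31.5 FPKM in pcDNA3.1 libraries. Only 1 was called when ANKRD9 replicate 2, ANKRD9 replicate 3 or pcDNA3.1 replicate 1 was left out. Among all tested genes 16.3% were higher and 19.8% lower, and the difference of this list from them was not tested. HLA-F10AL4 had the largest fold of the 10 tested, 1.75, at 3.28 ± 0.357 FPKM in ANKRD9 cells and 1.88 ± 0.485 FPKM in pcDNA3.1 cells (SD, n = 3 each; limma, adjusted p = 0.00998). MHCIA9 was at 7.14 ± 0.307 FPKM in ANKRD9 cells and 6.15 ± 0.268 FPKM in pcDNA3.1 cells (limma, adjusted p = 0.0334), a call lost in 7 of 16 alternative fits, with adjusted p up to 0.107. The third call, LOC107050538 (adjusted p = 0.0333, limma), was lost in 7 of 15 such fits. Class I genes can be nearly identical in sequence, so reads may be shared among them.

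The genes with profiles most like those of BF2, BF1 and CD74 were found by the Euclidean distance, over the 6 libraries, of log2(FPKM + 1) less the pcDNA3.1 mean, among 10499 tested genes with a symbol. Genes whose name begins with LOC were left out of this search. BF2 was nearest to TMEM198 at 0.0625 and P2RX4 at 0.0797. BF1 was nearest to BGLAP at 0.0691 and ZCCHC17 at 0.0709. CD74 was nearest to PIGBOS1 at 0.0813 and FAM171A2 at 0.0974. None of these genes is in the lists used here.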

How the data were processed

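RNA came off RNeasy columns and went into NEBNext Ultra libraries, per the labels' protocols. CASAVA and the build GRCg6a (galGal6) are named in the submitters' processing notes; aligner, counter, strand setting and versions were not given there. Each gene had 1 FPKM value per library, computed by the authors before deposit, and 0 value columns were left without a sample. FPKM times gene length was a whole multiple of 1 step per library for 100% of values above 0 (tolerance 0.01), which gave the reads. The 11685 of 24433 genes that averaged 1 FPKM or more entered a limma fit (version 3.58.1, R 4.3.3) of log2(FPKM + 1); the design held group alone, variances followed a mean trend, and calls needed an adjusted p under 0.05. This scale understates the change of low genes; folds in the text are ratios of mean FPKM. The procedure was tested on simulated counts with the same dispersion for all genes and far fewer changed genes than were called here. That test therefore says little about the calls in these data. Sums and ratios were tested by exact permutation. The 10 members and the gene lists were chosen with earlier results of these data known. JAK1 and IFNGR1 were named after their values were seen, as were the genes so listed below. Named besides the members were up to 4 genes of smallest adjusted p per pathway list, a few defining genes (BLA, CIITA, NLRC5, IRF1; 1 other is not reported here) and the 2 nearest profiles of 3 members; CALR, PDIA3, RFX5, RFXAP, RFXANK, DMB1, BG1, BG8, BLEC1, CD83, CD3E, SPI1, MRC2, PECAM1, EGFL7, TEK, CD8A, XCR1, PTPRC, HLA-F10AL4, MHCIA9, LOC107050538, SKIV2L, SKIV2L2, NELFE and MHCDMA were named after their values were seen. Chromosome names come from gene identifiers shared with the RefSeq table for GRCg7b (19717, or 80.7%), of which no coordinates were used. Sequences were not used here.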

Additional observations from a re-analysis of the deposited data

How the results depend on the processing

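In 16 alternative fits, BF1 and BF2 stayed higher and past the threshold in every one (BF1 adjusted p 4.54e-04 to 0.0424, BF2 1.04e-04 to 0.0298; limma), and the 10 fits that kept all libraries called the same number of members, 3. With 1 library left out, log2 fold changes were 0.26 to 0.41 for BF1, 0.30 to 0.42 for BF2 and 0.29 to 0.42 for their sum. The lowest BF1 value came without pcDNA3.1 replicate 1. Leaving out 1 library gave 2 to 4 called members, 1255 to 1764 higher genes and 1577 to 2146 lower genes over the table, the fewest without ANKRD9 replicate 2, and log2 fold changes of 0.16 to 0.24 for TAP1, -0.31 to -0.11 for CD74, 0.012 to 0.094 for TAP2, 0.042 to 0.17 for BLB1, -0.12 to -0.041 for B2M, -0.031 to 0.17 for BLB2, -0.042 to 0.054 for TAPBP, -0.070 to 0.056 for DMB2 and -0.014 to 0.18 for the BLB1 and BLB2 sum. TAPBP and DMB2, near 0 and uncalled throughout, turned to -0.012 and -0.013 with FPKM rescaled to an equal total per library, and TAPBP to -0.011 with quantile scaling; the cause was not tested. The replicate numbers did not pair the libraries (correlation of same-numbered deviations -0.20, 0.03 and -0.08); with a replicate block 3113 genes were called against 4210, 1420 higher and 1693 lower, and TAP1 passed narrowly (adjusted p = 0.0479, limma). Under that block 5 rather than 7 fibroblast markers were lower. With it 2 rather than 6 class II and endosomal genes were lower. Only 1 rather than 3 other class I genes found by description was higher under the block, as with no filter on low values. Depth limits BLB1 and DMB2, at 65 to 150 reads a library. Over the table, the 10 fits that kept all libraries called 1420 to 2472 genes higher and 1693 to 2320 lower. The main fit, whose shares are quoted as background, called 1900 higher and 2310 lower. The highest count, 2472, came with voom on the recovered reads.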

Other observations

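BG2, a B-G gene of the butyrophilin-like family on chromosome 16, was the most altered gene of the MHC region list. It had 2.62, 3.07 and 3.08 FPKM in ANKRD9 libraries, against 1.01, 1.06 and 1.09 FPKM in pcDNA3.1 libraries, on 52 to 180 reads each. The groups were far apart relative to their spread, a 2.78-fold difference of means (log2 fold change 0.93 ± 0.08, SE; limma, adjusted p = 2.36e-04, and between 9.97e-04 and 0.00238 when 1 library was left out). BG2 overlaps 3 uncharacterised genes on the opposite strand, whose reads cannot be told apart from its own. BG8, of the same family, stood at 2.34 ± 0.185 FPKM in ANKRD9 cells and 1.89 ± 0.205 FPKM in pcDNA3.1 cells (SD, n = 3 each) and did not pass (limma, adjusted p = 0.0831, and 0.0462 without pcDNA3.1 replicate 1), and BG1 was at most 0.166 FPKM in ANKRD9 libraries and 0.215 FPKM in pcDNA3.1 libraries. Over the whole of chromosome 16, 72 of 266 listed genes were tested, with 14 higher and 7 lower, BF1, BF2 and TAP1 included. Beside this, 16.3% of all tested genes were higher and 19.8% lower, and the difference of the chromosome from other genes was not tested.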
